A study of Felis catus with 2 samples.

Results

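Wnt ligands, their Frizzled (FZD) and LRP receptors, the R-spondins with their LGR receptors, the secreted inhibitors of the SFRP, DKK and WIF1 families, and the axin and TCF/LEF factors that carry the signal inside the cell were examined in the iridocorneal angle of the cat. Genes were taken by name: rows of the deposited table that carry a single gene symbol of these families. This gave 48 rows and 46 genes of the 19181 single gene names listed, since SFRP4 and WNT16 each stand on 2 rows, of which the higher was used. They comprised 17 ligands, 9 Frizzled receptors, the co-receptor LRP6, 6 R-spondins and LGR receptors, 8 secreted inhibitors, and 5 genes of the axin and TCF/LEF group. LRP5, DKK1, WNT7B and FZD5 were not among the single names matched and were not analysed here. Sums over the ligands and the Frizzled receptors therefore leave out WNT7B and FZD5. WNT5A and AXIN2 stand only on rows that join several names, so they are not among the 46 genes, and their rows are given separately.

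Wnt proteins are secreted lipid-modified glycoproteins that act over short distances. When a Wnt protein brings a Frizzled receptor and LRP5 or LRP6 together, the complex of axin, APC and GSK3 that marks beta-catenin for destruction is disabled, and beta-catenin enters the nucleus and works with TCF/LEF factors. R-spondins strengthen the signal through LGR receptors, SFRP proteins and WIF1 bind Wnt proteins outside the cell, and most DKK proteins block the LRP co-receptors. In the developing eye, Wnt signals pattern the ciliary margin, the lens and the cornea, and in the trabecular meshwork SFRP1 is known for its effect on the outflow of aqueous humor.

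Polyadenylated RNA had been sequenced from 2 libraries, 1 from an affected cat with primary congenital glaucoma (PCG) and 1 from an unrelated healthy cat of the same age, both 2 months old. The dissected tissue was the iridocorneal angle and ciliary body with neighbouring sclera and trabecular meshwork. PCG in this colony is a recessive trait that goes with a truncating insertion in LTBP2, for which the affected cats that were genotyped carried 2 copies. The labels give the sequenced cats only as affected and normal, while the study treats LTBP2 transcripts of the affected cat as mutated. The breed of these cats and whether tissue of 1 or both eyes was used are not given in the sources used here. With 1 library per condition the differences have no replicate check, no test was made, and disease, genetic background and dissection cannot be told apart. In such a bulk sample, fewer cells of a type and less RNA per cell cannot be told apart either.

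Levels are given in FPKM, in which fragments are divided by transcript length and by library size, so that genes of different length can be compared. A level of 1 FPKM corresponded to about 71.2 fragments per kilobase of effective transcript length in the normal library and to 67.6 in the affected one. Transcript lengths are not in the table, so the intervals of log2 ratios given here assume 1 kilobase, at which they are 95% intervals for counting error only. For each gene 1 FPKM was added to both levels before the log2 ratio of affected over normal was taken. This understates differences, most of all for genes near or below 1 FPKM. A gene was used when it reached 1 FPKM in at least 1 library, and a 2-fold difference is a log2 ratio of at least 1 or at most −1. Zeros need care in this table, because 35 loci are listed at 0 in 1 library and at 10 FPKM or more in the other.

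Of the 46 genes, 38 reached 1 FPKM in a library and 8 did not. Of the 38, 3 were higher by 2-fold or more in the affected cat, or 7.89%, against 8.14% of all 16676 loci past the same minimum, so that share lay near the background. A further 9 genes were at least 2-fold lower, or 23.7%, against 8.75% of all loci. The 3 higher genes were WIF1, WNT7A and LGR6, and the 9 lower genes were DKK2, WNT2B, WNT10A, WNT6, WNT3, WNT4, FZD2, FZD10 and LEF1. The median log2 ratio of the 38 genes was −0.29, against −0.0047 for all loci. Of the 38, 22 lay below 0, against 8392 of the 16676 loci, and outside the ligands 13 of 28 did. Among the 25 genes whose mean level reached 5 FPKM, the median was 0.039, with 2 genes, or 8%, higher by 2-fold against 7.62% of loci at that level, and 4 genes, or 16.0%, lower against 6.46%. At a 4-fold threshold 2 of the 38 genes, or 5.26%, were higher against 1.68% of all loci, and 1 gene, or 2.63%, was lower against 1.79%. The 10 ligands had a median of −0.93, and 5 of them were at least 2-fold lower. The 28 genes of the other groups had a median of 0.03, and 4 of them, or 14.3%, were at least 2-fold lower.

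**Figure D1:**
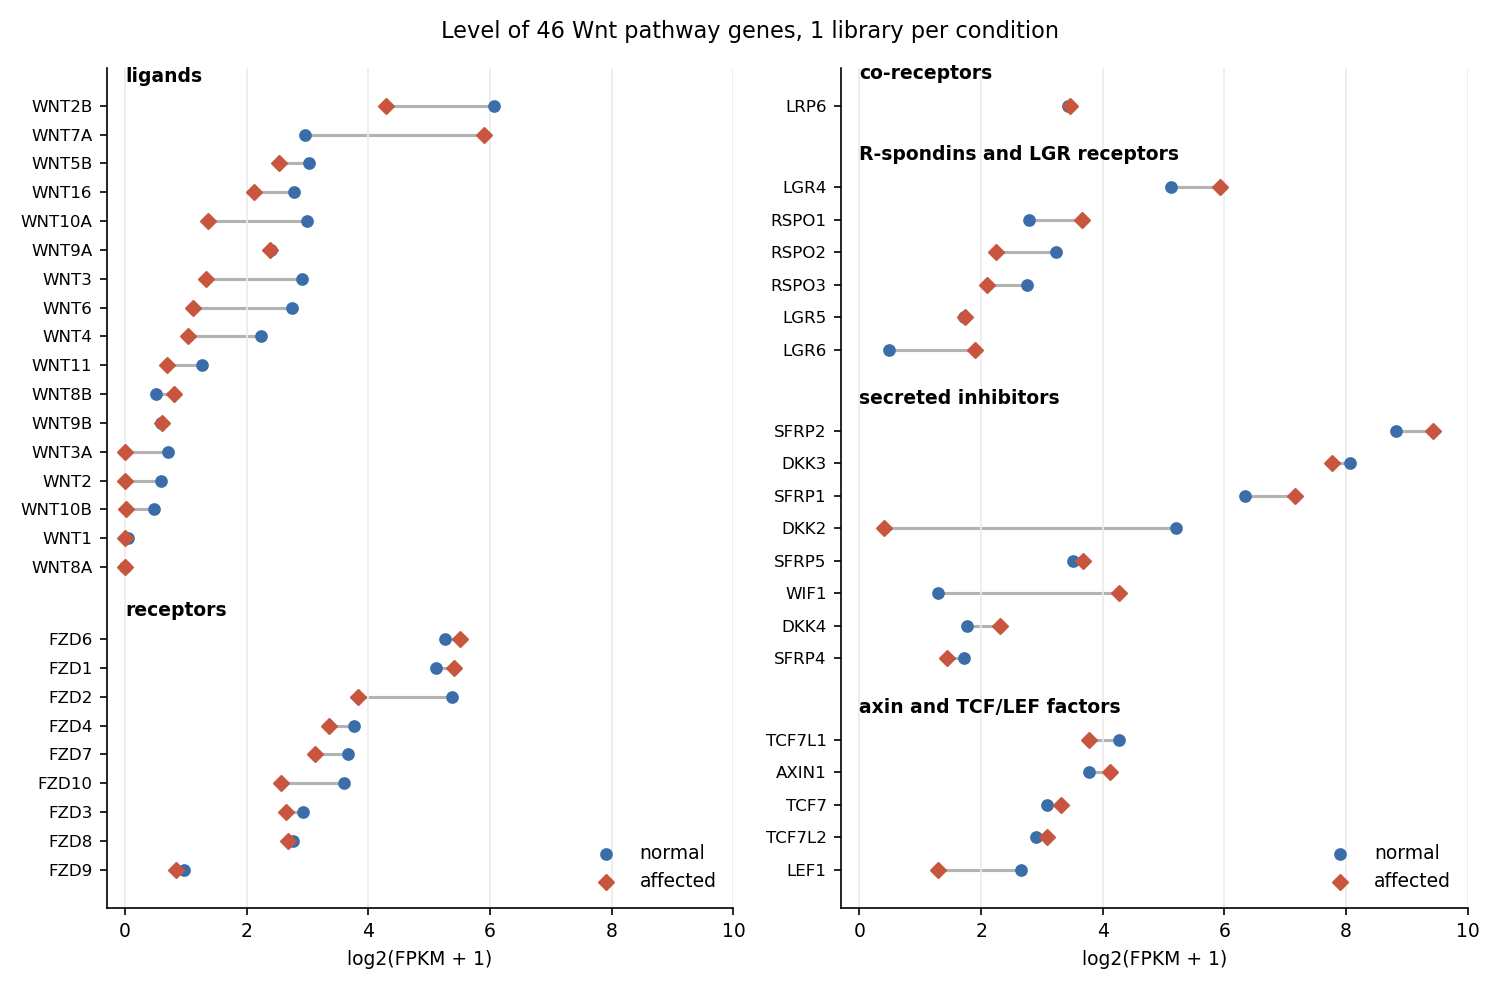
Level of each of the 46 genes as log2(FPKM + 1), in the normal library (circle) and in the affected library (diamond), 1 library each, grouped by role and ordered by mean level. The longest lines are those of DKK2, WIF1 and WNT7A, followed by WNT2B, WNT10A, WNT6, WNT3 and FZD2. The points of most other receptors and of LRP6 lie close together.

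The ligand transcripts had a somewhat lower sum in the affected library and a different leading member. The 17 ligand genes summed to 116.4 FPKM in the normal cat and 96.7 FPKM in the affected cat. WNT2B, a ligand known from the ciliary margin at the edge of the retina, was listed at 65.7 FPKM in the normal cat and 18.5 FPKM in the affected cat. It made up 56.4% of the ligand sum in the normal library and 19.1% in the affected library. WNT7A, a ligand known for its part in corneal epithelial identity, stood the other way, with 6.81 FPKM in the normal cat and 58.6 FPKM in the affected cat. Its share of the ligand sum was 5.85% in the normal cat and 60.7% in the affected cat. The joined row of WNT5A, a ligand of the branch that does not use beta-catenin, was listed at 27.6 FPKM in the normal cat and 21.1 FPKM in the affected cat. With that row in the sum, WNT2B made up 45.6% of the ligands in the normal cat and WNT7A 49.8% in the affected cat, and each still led.

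The log2 ratio of WNT7A was 2.93 (2.81 to 3.05), a level 8.62 times that of the normal library, and 81 of the 16676 loci had a higher log2 ratio. That of WNT2B was −1.77 (−1.86 to −1.69), and its level in the normal library was 3.55 times that in the affected library. Added together, WNT7A and WNT2B came to 72.5 FPKM in the normal cat and 77.1 FPKM in the affected cat. The other 15 ligands summed to 43.9 FPKM in the normal cat and 19.5 FPKM in the affected cat. Without WNT7A alone, the remaining 16 ligands summed to 109.6 FPKM in the normal cat and 38.04 FPKM in the affected cat, so both WNT2B and the other 15 genes were lower in sum.

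**Figure D2:**
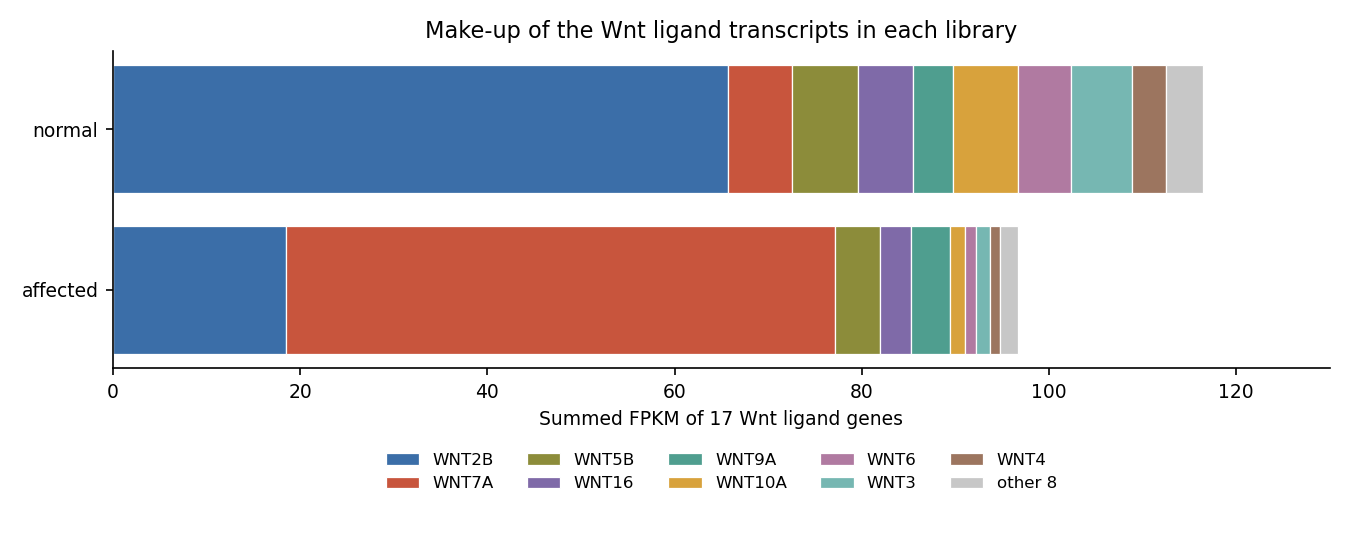
Summed FPKM of the 17 ligand genes in each library, 1 library per condition, with each segment showing 1 gene and the last segment the 8 lowest genes together. The normal bar of 116.4 FPKM is led by WNT2B and the affected bar of 96.7 FPKM by WNT7A.

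Besides WNT7A and WNT2B, 8 ligands reached 1 FPKM, and all 8 had a log2 ratio below 0. WNT10A, a ligand known from skin, hair and tooth development, had 6.94 FPKM in the normal cat and 1.58 FPKM in the affected cat. WNT6 had 5.67 and 1.17 FPKM, and WNT3, which is known from limb and early axis development, had 6.47 and 1.53 FPKM. These 3 genes had nearly the same log2 ratio, −1.62 for WNT10A, −1.62 for WNT6 and −1.56 for WNT3. WNT4, a ligand of kidney and gonad development, had 3.69 FPKM in the normal cat and 1.04 FPKM in the affected cat, with a log2 ratio of −1.20 whose counting interval of −1.42 to −0.98 included the 2-fold line.

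The remaining ligands past the minimum did not reach 2-fold on the log2 scale with 1 FPKM added. WNT16 had 5.89 FPKM in the normal cat and 3.34 FPKM in the affected cat, in a span shared with FAM3C, which was listed at 52.0 and 76.1 FPKM. WNT5B, a ligand of the branch that does not use beta-catenin, had 7.09 and 4.77 FPKM. WNT11, which directs cell movements in the embryo, had 1.40 and 0.618 FPKM, a difference of 2.27 times without the added 1 FPKM. WNT9A, known from the forming joints, was nearly level, with 4.26 FPKM in the normal cat and 4.21 FPKM in the affected cat. Below 1 FPKM in both libraries were WNT8B, WNT9B, WNT3A, WNT2, WNT10B, WNT1 and WNT8A. Of these, WNT8B was the only ligand besides WNT7A and WNT9B with a higher value in the affected library, at 0.415 and 0.748 FPKM. WNT9B had 0.512 and 0.527 FPKM. WNT3A, WNT2 and WNT1 were listed at 0 in the affected library and at 0.636, 0.508 and 0.0304 FPKM in the normal library, while WNT8A was listed at 0 in both. WNT10B had 0.394 FPKM in the normal cat and 0.0146 FPKM in the affected cat, the latter worth about 1 fragment per kilobase.

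Ligand genes also stand next to each other in the genome, a property that the choice by name did not use. On felCat5, the genome build of the deposited coordinates, WNT6 (chromosome C1, 202697636 to 202705560) and WNT10A (202707442 to 202721706) are separated by 1881 bases, and both were lower in the affected library to the same degree. WNT9B (chromosome E1, 45309194 to 45313018) and WNT3 (45354368 to 45402496) lie 41349 bases apart. Yet WNT3 was at least 2-fold lower, while WNT9B stayed near 0.5 FPKM in both libraries. WNT3A and WNT9A on chromosome A1 lie 42124 bases apart. There WNT9A was nearly level, and WNT3A was below 1 FPKM. The pair of WNT10B and WNT1 on chromosome B4, 7470 bases apart, was below 1 FPKM throughout. Loci of 1 pair thus did not always share their difference.

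Frizzled receptors bind Wnt proteins at the cell surface. Their transcripts summed to 160.2 FPKM in the normal cat and 132.5 FPKM in the affected cat. FZD6 and FZD1 were high and close between libraries, with 37.5 and 44.4 FPKM for FZD6 and 33.5 and 41.6 FPKM for FZD1. FZD2 was the highest Frizzled in the normal library, at 40.5 FPKM, and ranked 3rd in the affected library, at 13.2 FPKM. Its log2 ratio was −1.55 (−1.65 to −1.45), the lowest of the receptors.

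FZD10 lay at the 2-fold line, with 11.0 FPKM in the normal cat and 4.93 FPKM in the affected cat and a log2 ratio of −1.02 (−1.18 to −0.86). FZD4, which besides Wnt proteins binds norrin in retinal vessels, had 12.6 and 9.18 FPKM. FZD7 had 11.7 and 7.70 FPKM, FZD3 had 6.62 and 5.26 FPKM, and FZD8 had 5.81 and 5.43 FPKM. The span listed for FZD8 is shared with a second, more abundant locus that joins FZD8 with an Ensembl identifier and was listed at 9.96 and 11.6 FPKM, so that the small difference of FZD8 has the opposite sign there. FZD9 was below 1 FPKM in both libraries, at 0.947 and 0.777 FPKM, in a span that also holds HIP1, BAZ1B and other genes. Of the 8 Frizzled genes past the minimum, 2 were at least 2-fold lower, against 8.75% of all loci, and the counting interval of FZD10, 1 of these 2, included the 2-fold line. The co-receptor LRP6 was nearly level, at 9.78 FPKM in the normal cat and 10.1 FPKM in the affected cat.

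Of the 6 R-spondins and LGR receptors, LGR6 alone was past 2-fold, and it was higher in the affected library. The share of higher genes was 16.7%, against 8.14% of all loci. LGR4, the most abundant of the LGR receptors, had 33.8 FPKM in the normal cat and 59.9 FPKM in the affected cat. LGR6, known as a stem cell receptor of skin, had 0.408 FPKM in the normal cat and 2.71 FPKM in the affected cat, with a log2 ratio of 1.40 (1.18 to 1.61). LGR5, the stem cell receptor of the intestine, was level at 2.30 and 2.34 FPKM. Among the R-spondins, RSPO1 was higher in the affected library, with 5.92 and 11.7 FPKM, whereas RSPO2 had 8.42 and 3.75 FPKM and RSPO3 had 5.75 and 3.30 FPKM. The 3 R-spondins summed to 20.1 FPKM in the normal cat and 18.7 FPKM in the affected cat, and the order of RSPO1 and RSPO2 was exchanged. RSPO2, with a log2 ratio of −0.99 (−1.16 to −0.81), lay just short of 2-fold on this scale. Without the added 1 FPKM, its level in the normal library was 2.25 times that in the affected library.

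Secreted inhibitors were the most abundant group, with a sum of 850.5 FPKM in the normal cat and 1084 FPKM in the affected cat. SFRP2, a decoy that binds Wnt proteins, was the highest of all 46 genes, at 452.1 FPKM in the normal cat and 689.6 FPKM in the affected cat. DKK3, a DKK family member whose action on Wnt signals is less clear than that of its relatives, was second, at 266.4 and 217.2 FPKM. SFRP1, another decoy, followed at 79.5 and 141.5 FPKM. Of all loci past the minimum, 93.9% lay below SFRP1 in the normal cat and 96.4% in the affected cat, and none of these 3 inhibitors was past 2-fold.

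On the log2 scale with 1 FPKM added, DKK2 differed most of the 46 genes. WIF1 and WNT7A followed in the other direction, with counting intervals that overlap each other. DKK2, an inhibitor that is needed for the cornea to keep its epithelium from turning skin-like, was listed at 35.9 FPKM in the normal cat and 0.322 FPKM in the affected cat. The normal level was 112 times the affected level, and the affected level was worth 21.8 fragments per kilobase. Its log2 ratio was −4.80 (−4.96 to −4.65), and 25 of the 16676 loci had a lower one. The gene lies on chromosome B1 of felCat5 from 116056044 to 116159210.

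WIF1, which binds Wnt proteins and keeps them from their receptors, was listed at 1.45 FPKM in the normal cat and 18.2 FPKM in the affected cat, or 12.6 times the normal level. Its log2 ratio was 2.97 (2.79 to 3.16), with 79 loci above it. On chromosome B4 it spans 92655264 to 92724820, where a second locus is listed at 0 in both libraries. In the normal library DKK2 ranked 4th and WIF1 8th of the 8 inhibitors, and in the affected library WIF1 ranked 4th and DKK2 8th. SFRP5 had 10.5 and 11.7 FPKM, DKK4 had 2.41 and 3.98 FPKM, and SFRP4 had 2.30 and 1.70 FPKM, none past 2-fold. With DKK2 in it, the DKK family summed to 304.7 FPKM in the normal cat and 221.5 FPKM in the affected cat, while the 4 SFRP genes summed to 544.3 and 844.5 FPKM.

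**Figure D3:**
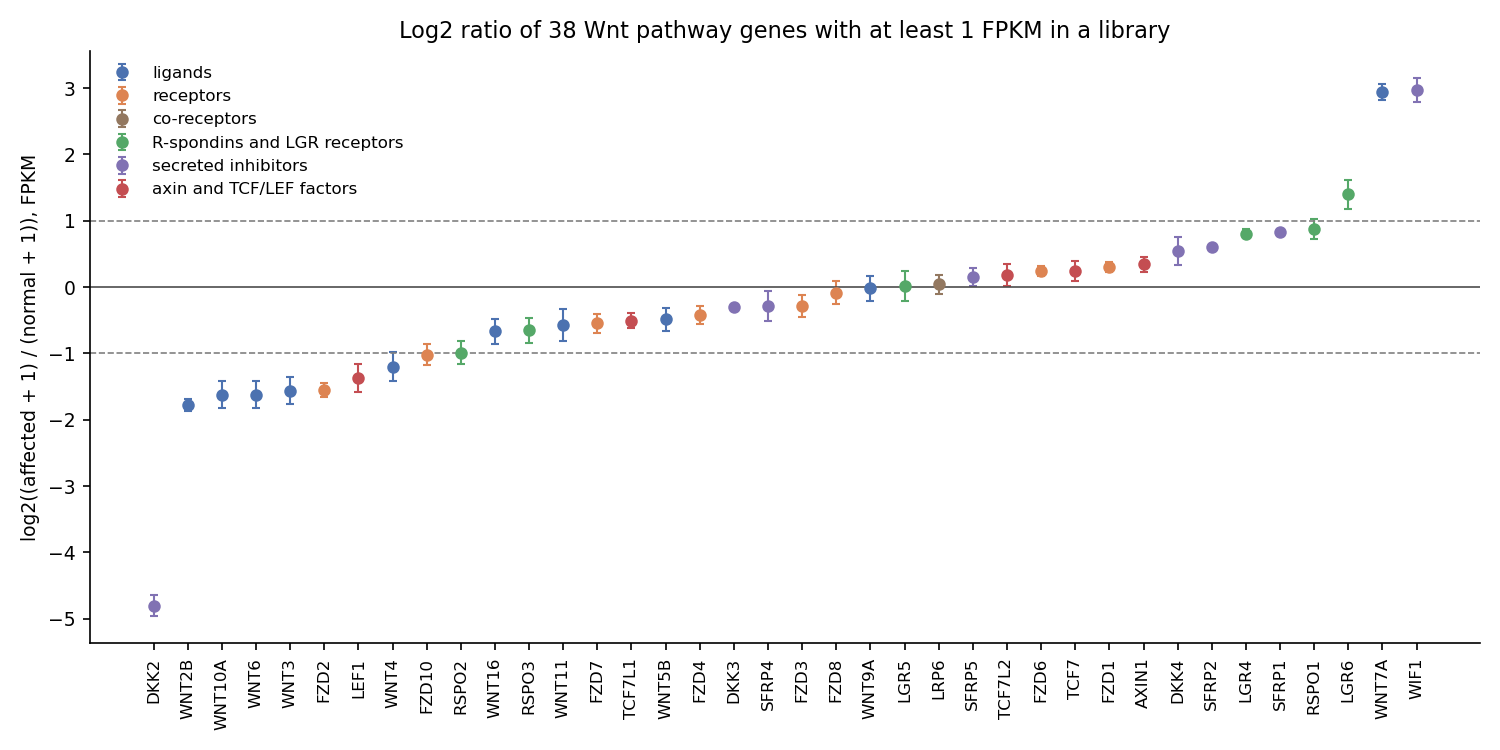
Log2 ratio of the 38 genes with at least 1 FPKM in a library, affected over normal, ordered from lowest to highest and colored by role. Bars are 95% counting intervals if the transcript had 1 kilobase of effective length, dashed lines mark 2-fold, and DKK2 at −4.80, WNT7A at 2.93 and WIF1 at 2.97 stand away from the other genes.

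Inside the cell, axin is the scaffold on which beta-catenin is marked for destruction, and TCF/LEF factors are its partners on DNA. AXIN1 had 12.7 FPKM in the normal cat and 16.4 FPKM in the affected cat. TCF7L1, which mainly represses, had 18.3 and 12.6 FPKM, and TCF7L2 had 6.51 and 7.52 FPKM. TCF7 had 7.45 and 8.97 FPKM, in a span that it shares with SKP1, which was listed at 264.9 and 287.4 FPKM. LEF1 alone of this group was past 2-fold, with 5.33 FPKM in the normal cat and 1.46 FPKM in the affected cat. Its log2 ratio was −1.37 (−1.58 to −1.16). The share of lower genes was 20% of 5, against 8.75% of all loci.

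Other genes of the pathway, from lists of 67 genes, mostly stayed within 2-fold. Of them, 57 were listed under their own name and 55 reached 1 FPKM in a library. Only 1 of the 55, or 1.82%, was at least 2-fold higher and 6, or 10.9%, were at least 2-fold lower, against 8.14% and 8.75% of all loci, and their median log2 ratio was −0.18. WLS, which carries Wnt proteins to the cell surface, had 156.2 FPKM in the normal cat and 135.5 FPKM in the affected cat. NOTUM, an enzyme that inactivates them, had 18.1 and 26.5 FPKM.

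Among 12 further receptors and surface regulators past the minimum, 1, or 8.33%, was at least 2-fold higher, near the 8.14% of all loci. A further 3, or 25%, were at least 2-fold lower, against 8.75% of all loci. PTK7, a receptor of the planar polarity branch, had 38.2 FPKM in the normal cat and 96.1 FPKM in the affected cat, with a log2 ratio of 1.31. GPC3, a heparan sulfate proteoglycan that binds Wnt proteins, was lower, with 78.4 and 14.4 FPKM and a log2 ratio of −2.37. TSPAN12, a partner of FZD4 in the norrin signal, had 20.8 and 8.61 FPKM, and ROR2, a receptor for WNT5A, had 5.95 and 2.31 FPKM. RYK, another Wnt receptor, had 61.5 and 33.2 FPKM and was not past 2-fold. Of 6 further secreted inhibitors, SOSTDC1 alone was past 2-fold, with 3.80 FPKM in the normal cat and 1.14 FPKM in the affected cat. The share of lower genes was 16.7%, against 8.75% of all loci. SERPINF1 was level at 317.8 and 313.2 FPKM, IGFBP4 had 98.6 and 80.5 FPKM, and FRZB, an SFRP relative, had 50.4 and 29.0 FPKM.

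In the beta-catenin branch, 2 of 18 genes past the minimum, or 11.1%, were lower, a share near the 8.75% of all loci, and none was higher. The 2 genes encode naked cuticle proteins, which damp the signal at the Dishevelled step. NKD1 had 20.5 FPKM in the normal cat and 8.66 FPKM in the affected cat, and NKD2 had 3.18 and 0.730 FPKM. CTNNB1, which encodes beta-catenin itself, had 252.4 and 162.7 FPKM, while the kinase CSNK1E had 34.4 and 34.0 FPKM and DVL3, a Dishevelled protein, had 27.0 and 33.7 FPKM.

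The 10 genes of the planar polarity branch past the minimum all stayed within 2-fold, with RHOA at 261.4 FPKM in the normal cat and 205.0 FPKM in the affected cat, MAPK8 at 12.2 and 13.2 FPKM, and DAAM2 at 13.3 and 11.6 FPKM. VANGL2, named after its values were seen, came nearest to 2-fold, at 6.62 and 3.15 FPKM with a log2 ratio of −0.88, and passed it with a pseudocount of 0.1 FPKM. Of 12 genes often read as targets of beta-catenin, NKD1 alone was past 2-fold, and the median log2 ratio was 0.08. The share of lower genes was 8.33%, near the 8.75% of all loci. CCND1 had 37.5 and 35.1 FPKM, BMP4 had 24.0 and 25.5 FPKM, and APCDD1 had 22.5 and 25.8 FPKM. The plot by role shows the ligands and the secreted inhibitors with the widest spread of log2 ratios.

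**Figure D4:**
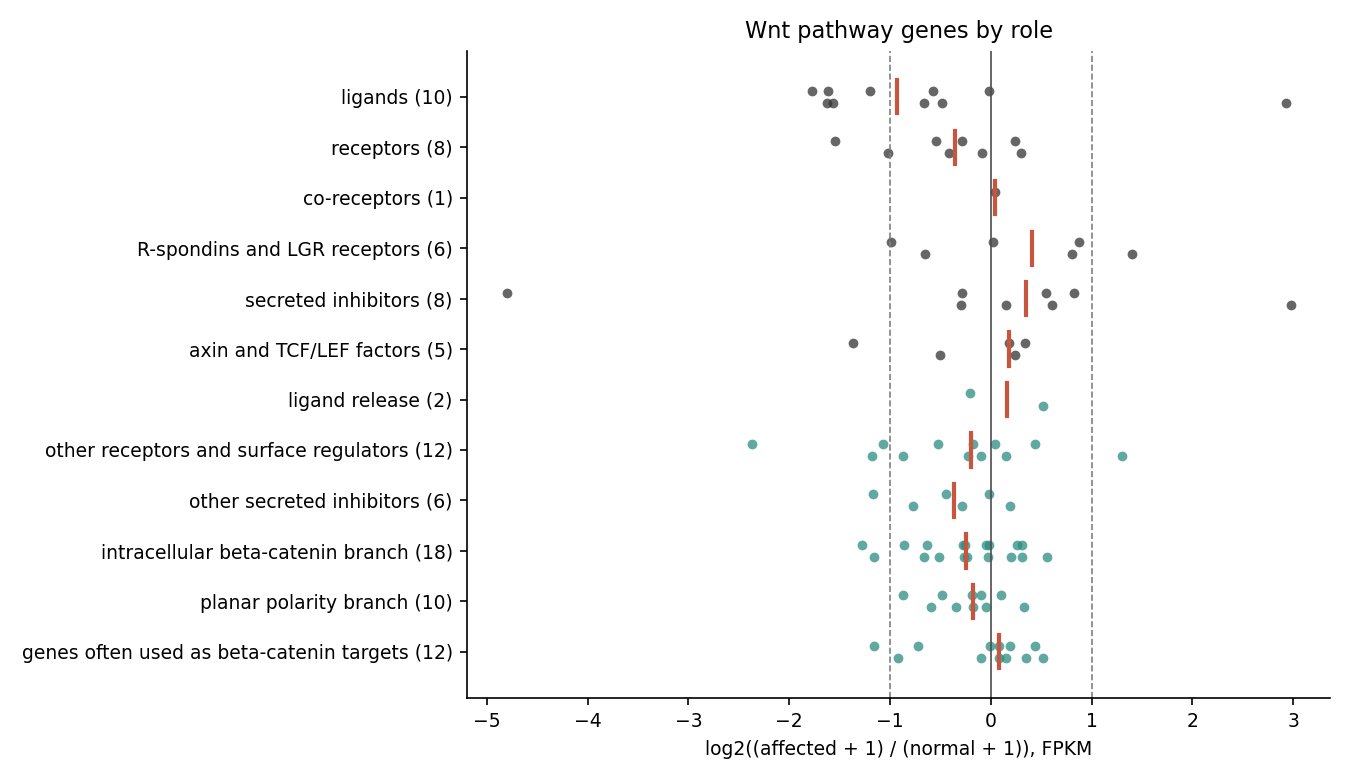
Log2 ratio, affected over normal, of genes with at least 1 FPKM in a library, as 1 point per gene, with the number of genes in parentheses and the median as a vertical bar. The upper 6 rows hold the 38 genes chosen by name, the lower 6 rows the further pathway genes, and dashed lines mark 2-fold.

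Markers of cell types that the dissected tissue could hold also differed between the libraries, and their part in the Wnt results was not tested. In these lists genes were counted as higher or lower when past 2-fold, as were 8.14% and 8.75% of all loci. Of the lists that were lower in the affected library, corneal and conjunctival epithelium had 10 of 11 genes past 2-fold and a sum of 655.8 FPKM in the normal cat and 90.8 FPKM in the affected cat, led by KRT12 with 299.1 and 3.27 FPKM. All 8 cell division genes were lower, with sums of 95.6 and 13.4 FPKM and CDK1 at 25.9 and 1.69 FPKM. Vascular endothelium had 6 of 10 genes lower by 2-fold and 9 of 10 below 0 on the log2 scale. Its sums were 184.5 and 71.6 FPKM, with CLDN5 at 32.9 and 7.35 FPKM. In the stroma of cornea and sclera 6 of 8 genes were lower. The keratocyte proteoglycan KERA, named after its values were seen, had 264.7 FPKM in the normal cat and 0.190 FPKM in the affected cat. COL1A2 was listed at 0 in the normal cat and 447.2 FPKM in the affected cat, and without it the stroma sums were 5726 and 2185 FPKM. PTGDS, the gene of that list with the highest mean, had 972.2 and 1840 FPKM.

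Lists that were higher in the affected library were photoreceptors, with 8 of 9 genes past 2-fold, sums of 411.6 and 1692 FPKM and RCVRN at 149.3 and 513.8 FPKM, and retinal glia and inner retina, with 3 of 8 genes higher, sums of 689.4 and 2427 FPKM and GLUL at 346.6 and 1981 FPKM. Without GLUL the retinal sums were 342.8 and 445.8 FPKM, and 2 of the 8 retinal genes had a log2 ratio below 0. Ciliary epithelium had 3 of 9 genes higher and 1 lower, with sums of 1750 and 4849 FPKM and COL9A1 at 403.5 and 1718 FPKM. Without its 3 genes higher by 2-fold, COL9A1, COL9A2 and OPTC, the ciliary sums were 639.4 and 504.6 FPKM, the other way. That reversal rests on CA2, the gene lower by 2-fold, at 370.2 and 111.9 FPKM. Of all 9 genes, 7 had a log2 ratio above 0. In the lens list 6 of 11 genes were higher and 2 lower, and for CRYAA the table gives 22978 FPKM in the normal cat and 0 in the affected cat. Without CRYAA the lens sums were 22316 and 34761 FPKM. The trabecular meshwork list of the labelled tissue was present in both libraries, with sums of 783.8 and 553.3 FPKM, 3 of 7 genes higher, 1 lower and MGP at 454.9 and 52.9 FPKM. MGP was the gene that was lower by 2-fold, and without it the sums were 328.9 and 500.5 FPKM, the other way. Pigment cells had 2 of 7 genes lower, sums of 2371 and 1644 FPKM and DCT at 660.6 and 896.3 FPKM, where DCT was the only gene above 0 on the log2 scale and the sums without it were 1710 and 748.2 FPKM. Smooth muscle had 1 of 7 genes lower by 2-fold and 4 of 7 below 0 on the log2 scale. Its sums were 1287 and 1114 FPKM, with ACTA2 at 600.0 and 699.4 FPKM. The lower sum rests on TAGLN, the gene past 2-fold, at 501.0 and 198.6 FPKM.

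**Figure D5:**
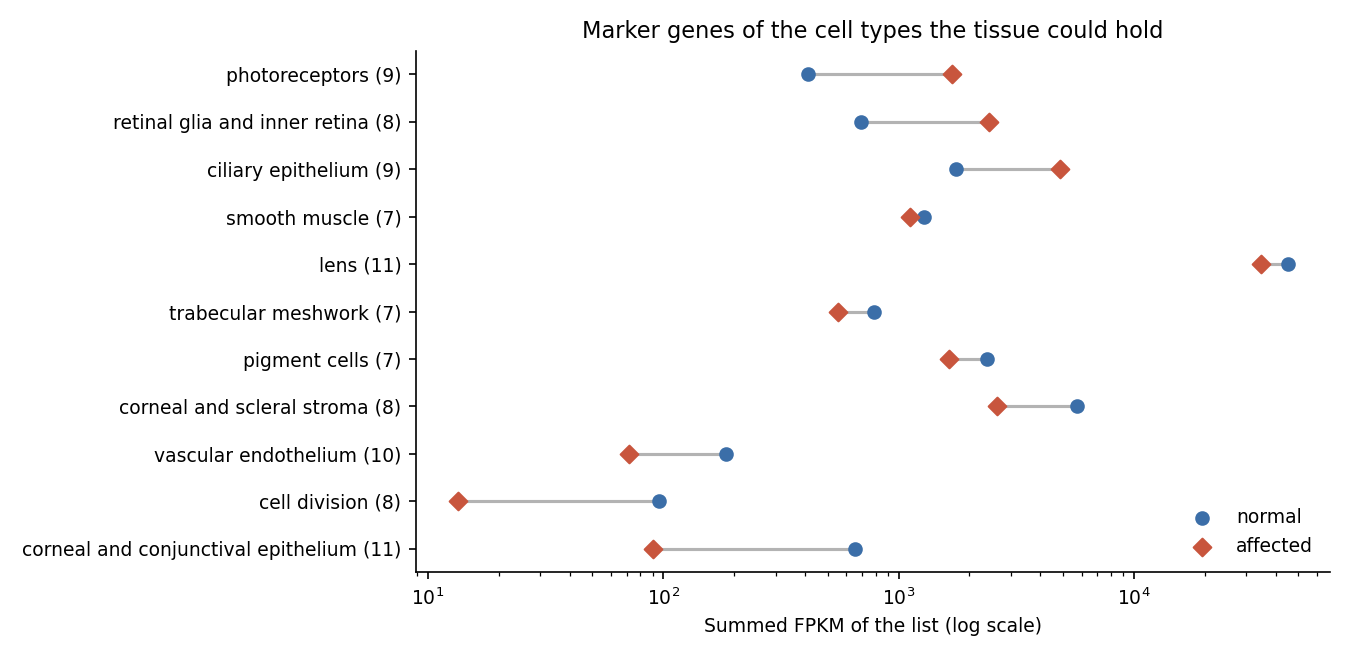
Summed FPKM of each marker list on a log axis in the normal library (circle) and the affected library (diamond), 1 library each, with the number of listed genes in parentheses. Sums of photoreceptor, retinal and ciliary epithelium genes are higher in the affected library, and those of corneal epithelium, cell division, endothelium and stroma are lower, where the lens and stroma sums each include a gene listed at 0 in 1 library.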

How the data were processed

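RNA of 1 affected and 1 normal cat was analysed. The authors aligned reads of TruSeq v2 libraries with TopHat 2.0.9 to the felCat5 build, guided by Ensembl predictions, and the deposited values are FPKM per locus from Cufflinks 2.1.1, handled with cummeRbund. Filters and the scaling between the libraries are not stated in the sources used here. The kit does not mark strand, so overlapping loci can share reads. Conditions were taken from the labels, and each column carries the name of its condition.

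Here log2 ratios were calculated with a pseudocount of 1 FPKM and no rescaling, over loci with at least 1 FPKM in a library. Models for counts were not used, because FPKM are normalized. Fragments per kilobase were read from the spacing of low values at loci without a name, where 96.7% of 1262 values in the normal and 96.8% of 1020 values in the affected library lay within 0.03 of a whole fragment. The steps and the fold calls were tested on simulated data.

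Every gene chosen by name was reported. Of the further pathway lists, genes past 2-fold or among the 3 with the highest mean were named, and of the marker lists those listed at 0 in a library or with the highest mean. KERA, VANGL2, and genes named where a marker sum rests on them, were chosen after their values were seen. The genes and lists were chosen with earlier results of these data known. Alternatives were another pseudocount, rescaling, minimum, threshold and treatment of repeated names. Start positions were taken as counted from 0 and are printed from 1. No sequences were used. Calculations ran in Python 3.11.15 with pandas 2.3.3 and numpy 2.4.6, and plots in matplotlib 3.10.9.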

Additional observations from a re-analysis of the deposited data

How the results depend on the processing

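The 12 genes past 2-fold remained past it in the same direction under a pseudocount of 0.1 FPKM, both rescalings, the sum of repeated rows and the addition of joined loci, 60 values in all. Under these settings 4 values of other genes came past 2-fold. They were RSPO2 with −1.15, −1.09 and −1.02 (pseudocount of 0.1, equal sums and median ratio) and WNT11 with −1.07 (pseudocount of 0.1). Of 190 values of single genes 28 moved by at least 0.1, and 4 near 0 changed sign: LGR5 under both rescalings (−0.02 and −0.0078), LRP6 under equal sums (−0.0082) and FZD8 with its joined locus (0.20). With a mean of at least 5 FPKM, 25 genes were left, of which 2 were higher and 4 lower, with a median of 0.039, and 815 and 691 of 10691 loci were higher and lower. The shares of lower genes were then 16.0% of these genes and 6.46% of all loci, and the negative sign of the median did not hold. At a 4-fold threshold 2 genes were higher and 1 lower, and 280 and 298 loci. With a pseudocount of 0.1, 28.9% of the genes and 13.0% of all loci were lower, and 7.89% and 11.9% were higher. With equal sums, 25.0% of 40 genes and 10.6% of 18351 loci were lower, and 7.50% and 8.54% were higher. The settings other than the higher minimum and threshold kept the counts at 3 higher and 9 to 11 lower and the median between −0.31 and −0.21. Of 72 counts over the further pathway lists, 8 moved by more than 1.5 times. They were 5 at the 4-fold threshold and 2 at the higher minimum, each towards fewer genes, and 1 with a pseudocount of 0.1, where the planar polarity branch had 1 lower gene. Removal of loci that share their span, and addition of loci that join names, were chosen after the data were seen. No paired analysis was possible because there is only 1 library of either condition. Precision is limited by that number, and fragments per kilobase cover counting error only.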

Other observations

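Some loci near these families were left out by the choice of single names. WNT5A is joined with an Ensembl identifier in 1 locus of 25183 bases, and its level lay above that of every single-name ligand except WNT2B in the normal library and WNT7A in the affected library. AXIN2, a gene that beta-catenin activates, is joined with APOH and 2 Ensembl identifiers in a locus of 519231 bases, listed at 9.35 FPKM in the normal cat and 7.36 FPKM in the affected cat, and these values cannot be assigned to AXIN2. The lower row of SFRP4 had 0.380 and 0.614 FPKM and that of WNT16 had 0.245 and 0.452 FPKM.

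Relatives of LRP6 outside the choice were looked at after the values were seen. LRP2, a large endocytic receptor, had 10.1 FPKM in the normal cat and 41.2 FPKM in the affected cat, with a log2 ratio of 1.93. LRP1 had 40.6 and 75.9 FPKM, LRP8 had 20.3 and 40.0 FPKM, and LRP4, a receptor for sclerostin, had 7.16 and 9.72 FPKM. RSPO4, an R-spondin outside the 46 genes, was listed at 0.207 and 0 FPKM.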
